A study of Mus musculus with 6 samples.

Results

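The genes of the potassium, sodium and calcium channels were examined for trimethylation of lysine 27 on histone H3 (H3K27me3) in mouse ovarian granulosa cells (GCs), the somatic cells that surround and feed the oocyte. The members were the protein-coding autosomal genes whose symbol starts with Kcn, with Scn and a digit, or with Cacn, and there were 131 of them among 20807 protein-coding genes. They comprised 92 potassium, 14 sodium and 25 calcium channel genes, and 3 further genes of these names on the sex chromosomes were left out. H3K27me3 was mapped by CUT&Tag, in which an antibody brings a transposase to the modified chromatin of permeabilized cells so that the DNA is cut and tagged in place. The GCs came from 3-week-old female ICR mice that had been primed with pregnant mare's serum gonadotropin (PMSG), a hormone that drives follicle growth. The mice then received a single intraperitoneal injection of phosphate-buffered saline (PBS, the vehicle) or of cyclophosphamide (CTX, an alkylating chemotherapeutic), and GCs were taken 6 h later. There were 3 libraries in each group, and each was made from the pooled GCs of 3 mice. No transgene or knockout was involved, and the PMSG treatment was common to both groups.

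Potassium channels repolarize the membrane and set the resting potential, sodium channels carry the fast upstroke of the action potential, and voltage-gated calcium channels turn depolarization into calcium entry. The pore of each is formed by a large alpha subunit, and smaller auxiliary subunits tune gating and trafficking. Most of these genes are used by neurons, muscle and endocrine cells, and genes of other lineages are frequent carriers of H3K27me3, which the Polycomb repressive complexes deposit at CpG-rich promoters of silent genes.

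A gene was scored in a library when a merged peak of that library overlapped the sequence within 2000 bp of any of its annotated transcription start sites (TSSs), and such an overlap is called a promoter peak. The lists held 4244 to 6378 merged peaks after PBS and 2916 to 4993 after CTX. The read density recovered from them was 1375 to 1955 reads per Mb after PBS and 1120 to 1630 after CTX. The shallowest library, CTX 3, also had the fewest peaks. Of 16 granulosa cell marker genes, 15 were without a promoter peak in all 6 libraries and Kitl had a peak of 200 bp in PBS 3 alone. Among the markers of other cells, 3 of 6 theca and stroma genes, 1 of 4 immune, 0 of 3 endothelial, 0 of 4 oocyte and 3 of 4 neuronal genes had a promoter peak in at least 1 library. A peak marks chromatin and not transcripts, so these lists describe which genes carried the mark and give no count of cells. In bulk chromatin, fewer marked cells and less of the mark in each cell cannot be told apart.

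Sequences upstream of the start were compared first, for the member of each family with the most called bases there and for an unmarked member of the same role with the most CpG. RefSeq gave promoters for 97 of the 131 genes, 133 promoters in all, on GRCm38.p6, the same assembly as mm10. The 250 bases before each start are printed 5′ to 3′ along the gene, with every CpG dinucleotide (CG, which reads the same on both strands) in capitals. Kcnh8 (chr17:52602459-52602708, plus strand) encodes a voltage-gated channel of the Elk type, and its upstream sequence was called in 6 libraries. Kcnh1 (chr1:192190527-192190776, plus strand), the related Eag channel, was called in 0. Scn9a (chr2:66634963-66635212, minus strand), the sodium channel of pain-sensing neurons, was called there in 4 libraries, and Scn10a (chr9:119719033-119719282, minus strand), another sodium channel of sensory neurons, in 0. Cacna1b (chr2:24763153-24763402, minus strand), the N-type pore of presynaptic terminals, was called there in 5 libraries, and Cacna1d (chr14:30353487-30353736, minus strand), an L-type pore of endocrine cells and pacemaker tissue, in 0.
Kcnh8: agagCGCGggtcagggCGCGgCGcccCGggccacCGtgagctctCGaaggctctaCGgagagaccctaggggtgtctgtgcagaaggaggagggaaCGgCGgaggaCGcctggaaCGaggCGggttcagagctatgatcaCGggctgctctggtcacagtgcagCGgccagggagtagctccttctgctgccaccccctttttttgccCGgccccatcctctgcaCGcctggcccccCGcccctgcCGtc
Kcnh1: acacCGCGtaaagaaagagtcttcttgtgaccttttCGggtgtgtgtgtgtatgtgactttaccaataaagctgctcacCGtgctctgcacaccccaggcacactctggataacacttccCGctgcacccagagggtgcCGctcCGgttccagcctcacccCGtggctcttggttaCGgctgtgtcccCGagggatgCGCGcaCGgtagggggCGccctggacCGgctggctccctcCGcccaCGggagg
Scn9a: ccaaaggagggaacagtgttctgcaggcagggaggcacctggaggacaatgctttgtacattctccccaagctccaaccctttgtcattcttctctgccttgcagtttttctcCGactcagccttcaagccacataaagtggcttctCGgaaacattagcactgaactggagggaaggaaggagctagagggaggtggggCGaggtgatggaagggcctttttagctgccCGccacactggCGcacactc
Scn10a: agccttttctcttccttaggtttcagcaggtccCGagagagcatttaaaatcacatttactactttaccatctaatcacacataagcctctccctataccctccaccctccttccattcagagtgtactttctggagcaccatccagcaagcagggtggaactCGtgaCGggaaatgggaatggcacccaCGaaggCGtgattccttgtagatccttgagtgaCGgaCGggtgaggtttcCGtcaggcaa
Cacna1b: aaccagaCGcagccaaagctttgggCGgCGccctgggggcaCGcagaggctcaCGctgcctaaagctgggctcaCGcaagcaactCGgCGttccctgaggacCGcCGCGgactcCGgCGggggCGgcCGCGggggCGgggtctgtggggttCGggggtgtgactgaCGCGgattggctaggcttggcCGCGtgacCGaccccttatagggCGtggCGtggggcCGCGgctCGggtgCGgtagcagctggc
Cacna1d: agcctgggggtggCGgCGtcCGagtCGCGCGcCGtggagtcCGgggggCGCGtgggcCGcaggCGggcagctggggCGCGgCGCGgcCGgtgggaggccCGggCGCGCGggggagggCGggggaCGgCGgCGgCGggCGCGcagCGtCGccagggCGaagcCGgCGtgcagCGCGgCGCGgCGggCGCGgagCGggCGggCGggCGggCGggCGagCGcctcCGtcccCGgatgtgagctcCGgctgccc

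The number of CpG in these stretches was 20 at Kcnh8 and 17 at Kcnh1, 5 at Scn9a and 8 at Scn10a, and 29 at Cacna1b and 50 at Cacna1d. The unmarked member thus held more CpG than the marked one in 2 of the 3 pairs, and the unmarked sequences had been picked for their CpG. Called bases in the 250 upstream bases of Kcnh8 numbered 250, 250 and 250 in PBS 1, 2 and 3 and 250, 250 and 162 in CTX 1, 2 and 3. The whole stretch was therefore called in 5 of the 6 libraries. At Cacna1b they numbered 0, 139 and 132 after PBS and 166, 59 and 64 after CTX, and at Scn9a 93, 154 and 0 against 54, 0 and 13. Over the whole RefSeq promoters (300 bases, with 50 after the start), the median was 9 CpG in the 133 channel promoters and 7 in all 32851 promoters, and 31.6% of channel promoters and 26.5% of all promoters held at least 20. The 22 promoters of genes marked in all 6 libraries had a median of 17 CpG, and the 70 promoters of genes with no peak had a median of 8. Of those 22 promoters, 12 had no called base in any library, and at most of the marked genes the called stretch lay inside the gene.

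Channel genes carried promoter peaks several times more often than protein-coding genes in general. Of the 131 genes, 60, 48 and 60 had a promoter peak in PBS 1, 2 and 3 and 46, 51 and 34 in CTX 1, 2 and 3. This was 42.7% ± 5.29 after PBS and 33.3% ± 6.67 after CTX (SD, n = 3 each), and the groups overlapped because CTX 2 exceeded PBS 2. Over all protein-coding genes it was 8.64% ± 1.09 after PBS and 6.26% ± 1.44 after CTX. The channel share was 4.84 to 5.49 times the share of all genes in each of the 6 libraries, and the mean difference was 30.6 percentage points. The fewest marked channel genes, 34, were in the shallowest library, CTX 3, and the 60 of PBS 1 were in the deepest. The order of depth was not followed throughout, since CTX 2, at 1630 reads per Mb, had 51 genes and PBS 3, at 1595, had 60, and the part of depth in the counts was not tested. When each list was reduced to its 2916 strongest peaks, the counts were 44, 42 and 50 after PBS and 40, 43 and 34 after CTX.

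Marking was mostly shared between libraries. There were 30 channel genes with a promoter peak in all 6 libraries, which was 22.9% of the members against 3.64% of all protein-coding genes. Another 37 genes were marked in 1 to 5 libraries, 12 of them in 5, and 64 genes (48.9%) had no promoter peak in any, against 87.6% of all genes. The share was higher than that of all genes at each number of annotated TSSs. Channel genes with 1 annotated TSS were marked in 42.4% on average over the 6 libraries, those with 2 to 4 in 35.4% and those with 5 or more in 39.9%, whereas all genes of these classes stood at 7.43%, 7.64% and 7.24%. The shares were also set beside the base composition at the 5′ end. At a ratio of observed to expected CpG above 0.6 within 500 bp of it, 44.3% of the channel genes and 8.87% of all genes were marked, and at or below 0.6 the shares were 34.2% and 6.18%, as means over the 6 libraries. In CTX 1 the channel shares were close, at 36.0% and 34.6%. Marking of channel genes in all 6 libraries was about as frequent on both sides, at 11 of 50 genes (22.0%) above 0.6 and 19 of 81 (23.5%) at or below it. For all genes these shares were 4.47% and 2.90%.

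The 3 families differed in how often they were marked, with calcium channels highest and sodium channels lowest. Calcium channel genes with a promoter peak numbered 17, 13 and 16 of 25 after PBS and 9, 15 and 8 after CTX, a mean of 52.0% over 6 libraries. Potassium channel genes numbered 39, 33 and 39 of 92 after PBS and 34, 32 and 23 after CTX, a mean of 36.2%. Sodium channel genes numbered 4, 2 and 5 of 14 after PBS and 3, 4 and 3 after CTX, a mean of 25.0%. The calcium share exceeded the potassium share in 5 of 6 libraries, by 15.8 ± 10.7 percentage points (SD over the 6 libraries), and CTX 1 was the exception at -0.957. The potassium share exceeded the sodium share in 6 of 6 libraries, by 3.57 to 21.6 percentage points. With 14 sodium channel genes, 1 gene moved that family's share by more than 1 potassium gene moved its own, and genes are not replicates, so the order is a description of these libraries. The order of calcium and potassium rested on internal start sites. With only the annotated 5′ end of each gene it turned around, with 31.3% of the calcium and 33.2% of the potassium channel genes marked on average.

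**Figure D1:**
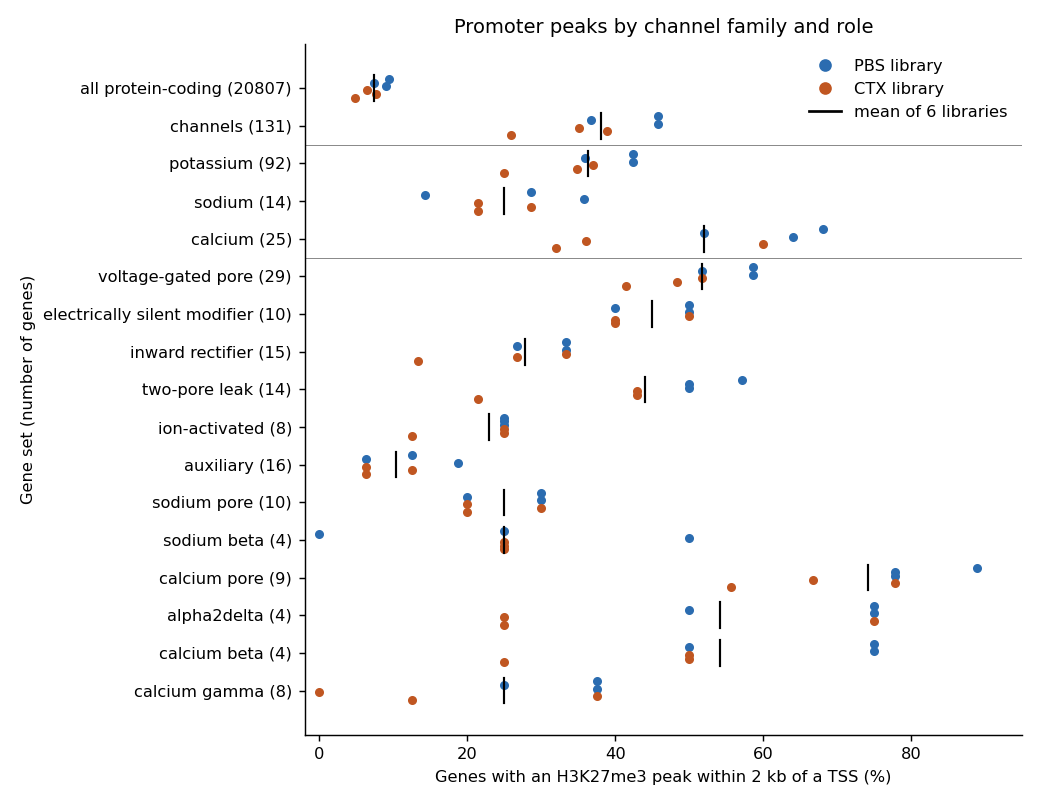
Share of genes with a promoter peak (x axis, percent) in each library for all protein-coding genes, all channel genes, the 3 families and the 12 roles (y axis, number of genes in parentheses). Each point is 1 library, blue for PBS and orange for CTX, and the black bar is the mean of 6 libraries. Calcium pore subunits stood highest, at 74.1% (38.9% when only the annotated 5′ ends were used, below the 51.1% of voltage-gated potassium pores), and potassium auxiliary subunits lay near the 7.45% of all genes.

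Within the potassium channels, marking in all 6 libraries was most frequent among the voltage-gated pore subunits and the electrically silent subunits. Of the 29 voltage-gated pore genes, 17, 15 and 17 were marked after PBS and 15, 14 and 12 after CTX, and 11 were marked in all 6. The electrically silent subunits (Kcnf, Kcng, Kcns and Kcnv), which form no channel alone and alter the Kcnb channels they join, had 4 of 10 genes marked in all 6 libraries and 5 in none. Tandem-pore leak channels (Kcnk), which hold the resting potential, had 3 of 14 marked in all 6 libraries and 9 in at least 1. Inward rectifiers (Kcnj) had 2 of 15 in all 6 libraries and 10 in none, and the calcium- or sodium-activated channels had 1 of 8 and 4. The auxiliary and interacting proteins (Kcnab, Kcne, Kcnip, Kcnmb and Kcnrg) had 0 of 16 in all 6 libraries and 12 in none, and their share was 0.844 to 2.07 times that of all genes.

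Among the voltage-gated potassium channels, 3 Shaker genes of axons were marked in every library, with covered bases summed over all peaks in their windows. At Kcna2 (chromosome 3, 107101146 to 107115005, plus strand) the peaks covered 1903, 1382 and 1873 bp of the promoter windows in PBS 1, 2 and 3 and 1392, 1326 and 923 bp in CTX 1, 2 and 3. At Kcna6 (chromosome 6, 126708329 to 126740674, minus strand) they covered 1999, 1401 and 1877 bp after PBS and 1315, 1607 and 664 bp after CTX. At Kcna1 (chromosome 6, 126640397 to 126646384, minus strand) they covered 1512, 725 and 1236 bp and 1287, 1480 and 597 bp, in that order. The groups overlapped at all 3 genes, and CTX 3 had the least at each. The stretch called in all 6 libraries lay mostly in an intron at Kcna2 (107101723 to 107102106), in coding sequence at Kcna6 (126739651 to 126739814) and in the untranslated part of an exon at Kcna1 (126644367 to 126644442), with its middle 347, 418 and 391 bp downstream of the nearest TSS.

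The Kcnq genes encode channels that open slowly near the resting potential, and Kcnq3 contributes to the M-current of neurons. Kcnq3 had 943, 720 and 950 bp after PBS and 659, 1009 and 277 bp after CTX. The groups overlapped there, with CTX 2 the highest library of all. Kcnq1, which forms the slow cardiac potassium current and lies in an imprinted cluster, had 1151, 1172 and 1420 bp and 663, 585 and 407 bp. At Kcnq1 every PBS library exceeded every CTX library.

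The Shaw genes Kcnc1 and Kcnc4 encode fast channels that allow rapid firing. Kcnc4 was covered over 1825, 783 and 1620 bp after PBS and 1238, 1558 and 222 bp after CTX. Kcnc1 was covered over 1248, 486 and 1169 bp after PBS and 310, 616 and 798 bp after CTX. The groups overlapped at both, and PBS 2 stood below the other PBS libraries. The ether-a-go-go relatives Kcnh5 and Kcnh8, also voltage-gated channels of neurons, were marked in every library as well. Kcnh5 had 1474, 1458 and 1318 bp after PBS and 210, 1506 and 857 bp after CTX, a spread of 210 to 1506 bp among the CTX libraries. Kcnh8 had 873, 532 and 796 bp after PBS and 613, 692 and 444 bp after CTX, with overlap.

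The strongest leak channel was Kcnk9, an acid-sensitive channel of neurons and of the adrenal cortex (chromosome 15, 72501089 to 72546340, minus strand), which had the most covered bases of all members on average. Its peaks covered 1940, 2122 and 2213 bp after PBS and 1497, 1503 and 727 bp after CTX, and the groups did not overlap. Kcnk4, a mechanosensitive leak channel, had 2335, 1873 and 1852 bp after PBS and 752, 1995 and 200 bp after CTX, so CTX 2 lay within the PBS range and CTX 3 far below it. Kcnj12, an inward rectifier of heart and muscle, had 1483, 1392 and 1935 bp and 1088, 898 and 575 bp, with no overlap. Kcnj8, the pore of the vascular ATP-sensitive channel, was marked in 5 libraries, and Kcnj11, its counterpart in pancreatic beta cells, in 0. Kcnk1 was marked in 3 libraries and Kcnk2 in 1. These last counts show that close relatives within the leak and rectifier groups differed in whether they were marked.

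The electrically silent subunits Kcng2, Kcns1 and Kcnf1 were marked in every library. Kcng2 had 1719, 1248 and 1359 bp after PBS and 1251, 1434 and 460 bp after CTX. Kcns1 had 1252, 780 and 1249 bp after PBS and 666, 703 and 727 bp after CTX. Kcnf1 had 691, 618 and 955 bp after PBS and 648, 414 and 200 bp after CTX. Only Kcns1 of these 3 had every PBS library above every CTX library. Among the calcium-activated channels, Kcnn2, a small-conductance channel of neurons and heart, had 762, 458 and 1024 bp after PBS and 200, 377 and 320 bp after CTX, without overlap. Kcnma1, the large-conductance channel, and Kcnn4, the intermediate-conductance channel, had no promoter peak in any library.

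**Figure D2:**
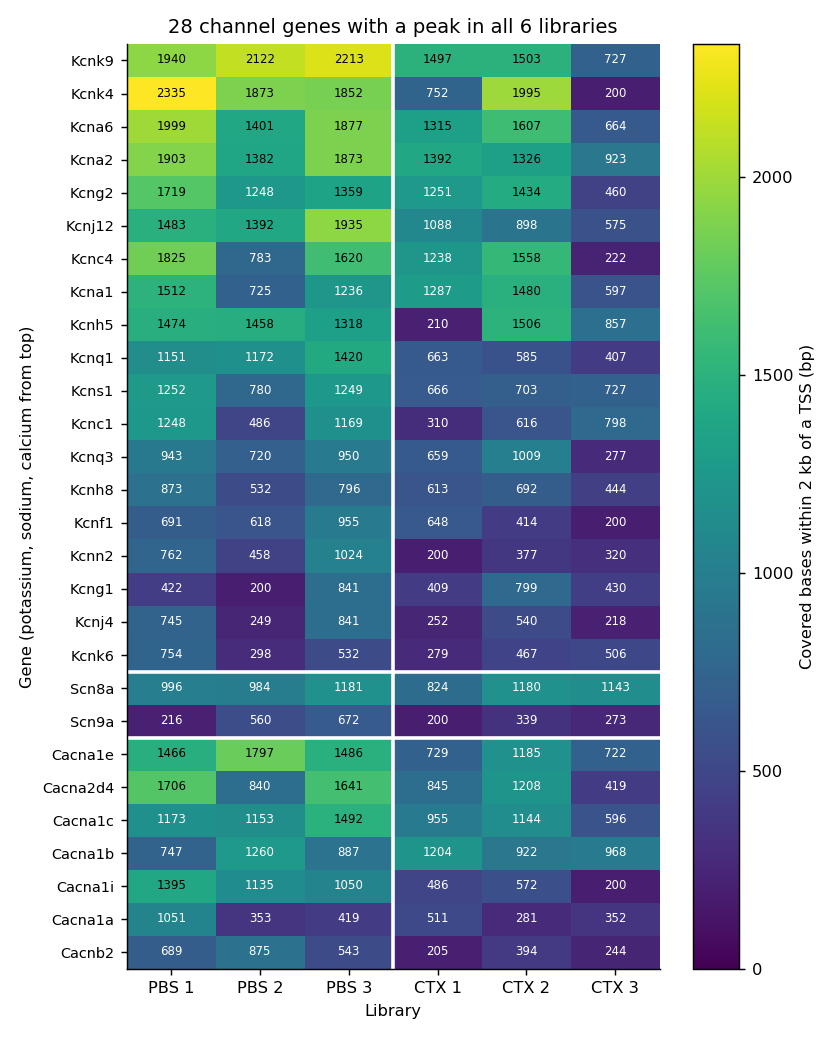
Bases covered by peaks within 2000 bp of a TSS (color and printed number, bp) for 28 of the 30 channel genes with a promoter peak in all 6 libraries (rows, grouped as potassium, sodium and calcium and ordered by their mean) in each library (columns). Kcnk9 and Kcnk4 head the potassium genes with up to 2213 and 2335 bp, and the CTX 3 column is the lowest at most genes, whereas Scn8a holds 1143 bp there.

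Sodium channel genes were marked least often. Of the 10 pore genes, Scn8a and Scn9a were marked in all 6 libraries and 7 in none. Scn8a, the main sodium channel of the axon initial segment (chromosome 15, 100869858 to 101045938, plus strand), had 996, 984 and 1181 bp after PBS and 824, 1180 and 1143 bp after CTX. The means were 1054 ± 110 and 1049 ± 196 bp (SD, n = 3 each), and its stretch called in all 6 libraries (100871409 to 100872068, 660 bp) was the longest found. Scn9a had 216, 560 and 672 bp after PBS and 200, 339 and 273 bp after CTX, with overlap. It sat between unmarked sodium channel genes. On chromosome 2, from 66270778 to 66784914, Scn1a and Scn7a, its neighbors, had no promoter peak in any library, nor did Scn2a and Scn3a nearby.

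All but 1 of the 9 calcium pore genes had a promoter peak in at least 1 library, and 5 had one in all 6. Per library the count was 8, 7 and 7 after PBS and 6, 7 and 5 after CTX, which was 8.59 to 11.7 times the share of all genes. With only the annotated 5′ end of each gene the mean share of the calcium pores was 38.9%, below that of the voltage-gated potassium pores (51.1%), the silent subunits (45.0%) and the leak channels (40.5%). Cacna1e, the R-type pore, had 1466, 1797 and 1486 bp after PBS and 729, 1185 and 722 bp after CTX, without overlap. Cacna1c, the L-type pore of heart and smooth muscle, had 1173, 1153 and 1492 bp and 955, 1144 and 596 bp, and the groups did not overlap, with 1153 bp in PBS 2 next to 1144 bp in CTX 2. Cacna1b had 747, 1260 and 887 bp after PBS and 1204, 922 and 968 bp after CTX, with a mean of 965 ± 265 bp after PBS and 1031 ± 151 bp after CTX. Of the 5 pore genes marked in all 6 libraries it alone had a higher CTX mean, within the spread of the libraries. Cacna1i, a T-type pore, had 1395, 1135 and 1050 bp and 486, 572 and 200 bp, and Cacna1a, the P/Q-type pore of central synapses, had 1051, 353 and 419 bp and 511, 281 and 352 bp. The groups did not overlap at Cacna1i and overlapped at Cacna1a. Cacna1g was marked in 5 libraries, Cacna1h in 1 and Cacna1d in 0.

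Of the accessory calcium channel subunits, Cacna2d4, an alpha2delta subunit of photoreceptors, had 1706, 840 and 1641 bp after PBS and 845, 1208 and 419 bp after CTX, with overlap. The called stretch at Cacna2d4 was also within 2000 bp of a TSS of another gene, Lrtm2, so the peak cannot be assigned to either gene alone. Cacnb3 was marked in 5 libraries and Cacna2d1 in 0. Alpha2delta and beta subunits each had 3 of 4 genes marked in at least 1 library and 1 in all 6. Gamma subunits, several of which serve AMPA-type glutamate receptors rather than calcium channels, had 3 of 8 and 0.

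The called bases lay mainly inside the genes. At 24 of the 30 genes marked in every library there was a stretch called in all 6, with a median length of 218 bp (52 to 660 bp). Its middle lay downstream of the nearest TSS at 19 genes and upstream at 5, and it was mostly intronic at 15, coding at 3, untranslated exon sequence at 3, other exon at 1 and outside the gene at 2. The stretch was within 2000 bp of the annotated 5′ end at 19 genes. At Cacna1c, Cacna1e and Cacna2d4 it was 90082, 157354 and 94460 bp into the gene, near internal start sites, and at Kcnn2 and Kcng2 it was 291916 and 2029 bp into the gene. When only the 5′ end was used, 5 of the genes marked in all 6 libraries, Cacna1a, Cacna1c, Cacna1e, Cacna2d4 and Kcnn2, had no promoter peak left in any. The sequence within 500 bp of the middle of the 24 stretches had a median GC content of 58.5% and a median ratio of observed to expected CpG of 0.557, from 0.129 at Kcnj4 to 0.899 at Cacna1b, and the ratio was above 0.6 at 9.

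**Figure D3:**
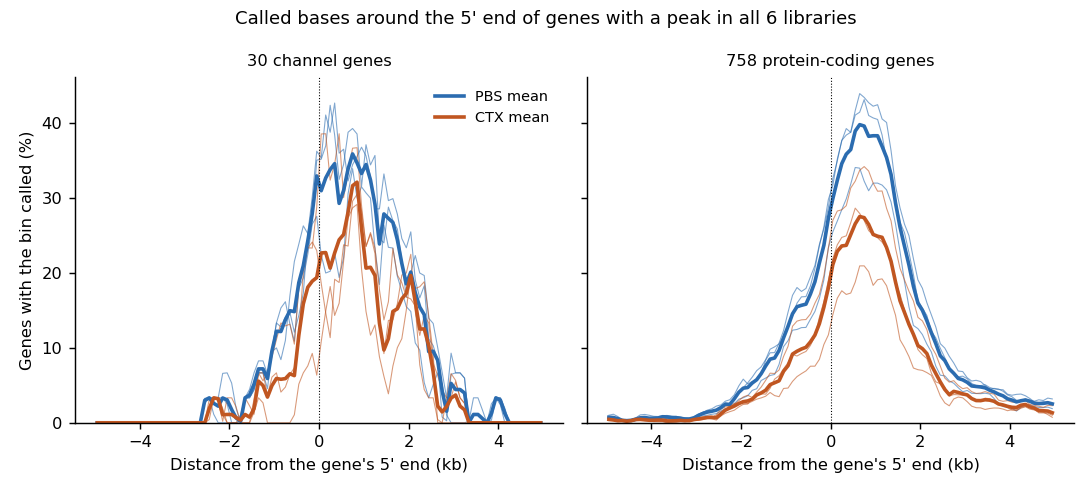
Share of genes in which each 100 bp bin was called (y axis, percent) by distance from the annotated 5′ end (x axis, kb, positive into the gene), for the 30 channel genes (left) and the 758 protein-coding genes (right) with a promoter peak in all 6 libraries. Thin lines are libraries and thick lines are group means. Both sets peak inside the gene, in the bin from 700 to 800 bp for channels and from 600 to 700 bp for all, at 33.8% and 33.7% over the 6 libraries.

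The profile around the 5′ end rose inside the gene both for the channels and for all genes marked in every library. In the 1000 bp before the 5′ end, a bin was called in 15.4% of channel genes and 14.9% of all such genes, and in the 1000 bp after it in 29.3% and 30.7%. Downstream the channel mean was 33.0% after PBS and 25.6% after CTX, and that of all genes was 36.4% and 25.0%. Channel peaks ranked somewhat above other promoter peaks of their own library. The median rank percentile of a marked channel gene, by the −log10 q-value of its strongest peak, was 76.6, 63.4 and 75.7 after PBS and 66.4, 74.7 and 67.9 after CTX. For all marked genes it was 68.0, 64.6 and 65.4 and 65.2, 67.2 and 62.9, so the channels were higher in every library except PBS 2. At a q-value of at most 1e-05, 7 of the 30 channel genes and 227 of all 758 genes kept a promoter peak in all 6 libraries. The channel genes thus did not keep it more often than genes in general. The 7 were Kcnc4, Kcnq3, Kcnk9, Kcng2, Scn8a, Cacna1b and Cacna1c.

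Neighboring channel genes were not marked as blocks. There were 19 groups of members separated by at most 300 kb, with 46 genes. In 2 groups every gene was marked in at least 1 library, in 6 groups none was, and 11 groups held marked and unmarked genes side by side. The fully marked groups were Kcna5, Kcna1 and Kcna6 (chromosome 6, 126532551 to 126740674) and Cacna1c with Cacna2d4 (chromosome 6, 118587240 to 119352407). In the group of Kcna3, Kcna2, Kcna10 and Kcnc4 (chromosome 3, 107036169 to 107459552), Kcna10 had no peak in any library, whereas Kcna2 and Kcnc4 had one in all 6. No merged peak fell in the windows of more than 1 member (0 of 484 peaks counted over the libraries), so the genes of a group were scored on separate peaks. Merged peaks had a median width of 221 to 342 bp per library, too narrow to span such neighbors. That count therefore says nothing about marking in blocks.

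To compare the groups gene by gene, the covered bases were fitted with limma over 1892 protein-coding genes with a promoter peak in at least 2 libraries, of which 57 were channel genes. Covered bases fell at 2 channel genes and rose at 0, beside 4.49% of all genes fitted that fell and 0% that rose, and 8 of the 57 channel genes had an unadjusted p under 0.05, beside 17.0% of all genes fitted. Among the called genes was Cacna2d2, an alpha2delta subunit of cerebellum and heart (chromosome 9, 107399612 to 107529343, plus strand), which had 341, 208 and 656 bp after PBS and 0, 11 and 0 bp after CTX. Every PBS library was above every CTX library, and 1 CTX library touched the window with 11 bp. The difference was -2.18 ± 0.44 (log2 of covered bases plus 100, with SE, limma adjusted p = 0.0449). Cacna2d2 passed the filter through its PBS libraries, and its CTX values were at or near 0. The size of the difference therefore depended on the pseudocount. With 10 bp added in place of 100 it was -4.86, and with 1000 bp 0 genes of the whole fit were called.

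The call at Cacna2d2 was not kept with wider windows. Within 5000 bp of its TSSs the peaks covered 646, 410 and 1228 bp after PBS and 330, 543 and 264 bp after CTX, and it was then not called. With equal peak numbers they covered 341, 208 and 322 bp within 2000 bp after PBS and 0, 11 and 0 bp after CTX. There the groups stayed apart and the call was lost, as it was at every gene of the 1495 then fitted. Likewise 0 genes of the whole fit were called with quantile-normalized covered bases or without any 1 of PBS 1, PBS 3, CTX 1 and CTX 3. Without PBS 2 there were 3 calls among 57 channel genes, Cacna2d2 and Cacnb4 among them, beside 9.78% of all genes. Without CTX 2 there were 2, Cacng4 among them, beside 4.38%. A promoter peak in every PBS and no CTX library was found at 2 of the 47 channel genes marked in all PBS libraries, beside 6.66% of the 1307 protein-coding genes marked there. Without CTX 2 the count of such channel genes was 5. Leaving out a CTX library loosens the rule for every gene, and the share of all genes was not counted for that setting. The 5 are therefore no result about the channels. Kcnn3, a small-conductance calcium-activated channel, was among the 2, and its peaks touched its windows over 144, 88 and 28 bp only. Within 5000 bp they covered 872, 602 and 857 bp after PBS and 0, 686 and 0 bp after CTX. The opposite pattern, a peak in every CTX and no PBS library, was found at 0 channel genes and at 0 of all 20807 protein-coding genes.

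The lower covered bases after CTX treatment were shared by the channels and by the rest of the genome. The median log2 difference was -0.81 over the 57 channel genes and -0.84 over the 1892 genes fitted, and 53 of the 57 were below 0, beside 91.3% of all genes fitted. The medians were -0.77 over 37 potassium, -0.29 over 4 sodium and -0.98 over 16 calcium channel genes. The 4 genes that were not lower included Cacna1b (0.11), Kcng1 (0.24) and Kcnmb4 (0.36), of which Kcng1 and Kcnmb4 were chosen after their values were seen, and none of the 4 passed the test. Every PBS library exceeded every CTX library at 16 of the 57 channel genes, beside 26.5% of all genes, and the reverse held at 0, beside 0.423%. Among genes with a promoter peak in all 6 libraries the same was found at 9 of 30 channel genes, beside 32.2%. Quantile normalization of the covered bases removed the shift, with a median of 0.06 over the channels and 0.04 over all genes, and it left 0 genes called, with 3 channel genes and 8.83% of all genes at an unadjusted p under 0.05. Summed over the members, the covered bases were 47936 ± 9613 bp after PBS and 27819 ± 11089 bp after CTX (SD, n = 3 each), a ratio of 0.580 against 0.547 for all protein-coding genes.

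**Figure D4:**
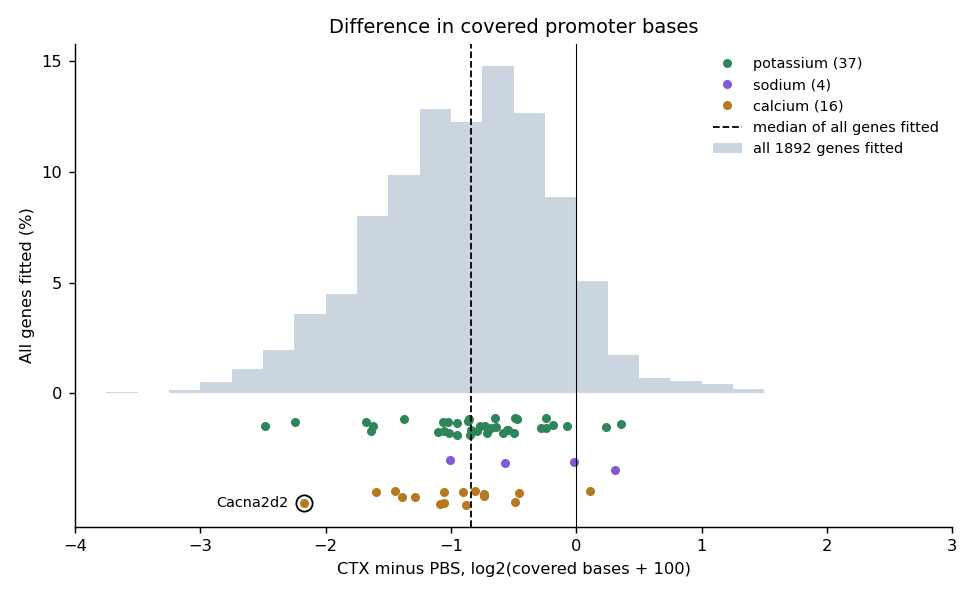
CTX minus PBS difference in log2 of covered bases plus 100 (x axis). The grey bars give the percent of all 1892 genes fitted (y axis, bars from 0) and the points below 0 are the 37 potassium, 4 sodium and 16 calcium channel genes, spread vertically to be seen apart. Cacna2d2, 1 of the 2 called, is circled, and the dashed line is the median of all genes fitted, -0.84.

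The strength of the peaks was compared by their rank and by their height. By rank percentile within the library, 0 of 30 channel genes and 0% of 758 genes in either direction passed the limma test, and 2 channel genes and 6.99% of all genes had an unadjusted p under 0.05. The height of the peaks was also recovered as the number of overlapping reads at the summit, scaled to 1000 reads per Mb, a measure added after the data were seen. Its median log2 difference was -0.29 over the 30 channel genes and -0.28 over 756 genes, and 29 of 30 were lower, beside 92.5% of all. An unadjusted p under 0.05 was found at 9 of the 30 channel genes, beside 37.6% of all. For covered bases of genes with a promoter peak in all 6 libraries the same was found at 7 of 30, beside 24.8%, and 0 genes were called. Kcna2 fell, with scaled heights of 39.4, 39.3 and 47.0 reads after PBS and 30.7, 32.5 and 25.9 reads after CTX. Every PBS library was above every CTX library, and the log2 difference was -0.50 ± 0.16 (SE; limma adjusted p = 0.0459). This was 1 of 30 channel genes, beside 10.6% of all genes that fell and 1.32% that rose, and the heights did not overlap at 11 of 30 channel genes, beside 39.9% of all. The exception among the 30 was Cacna1b, at 0.25, which was not called.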

How the data were processed

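Anti-H3K27me3 CUT&Tag of mouse GCs was analysed from 6 peak lists, 1 per library (3 PBS, 3 CTX). Per the labels and the study's methods, the authors aligned reads with BWA to mm10, discarded duplicates and reads without a unique position, and ran MACS2 2.1.0 at a q-value threshold of 0.05, once for each library; use of a control library is not given in the sources used here. For each summit the deposited lists give a MACS2 score, a fold enrichment (the ratio of pileup to local background), the −log10 p-value and −log10 q-value and a summit offset. They hold no read totals. A narrow-peak caller can split a broad H3K27me3 domain into several peaks, and fewer and narrower peaks can be called at lower depth.

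Overlapping or touching intervals were merged. Genes and TSSs came from the GENCODE annotation of GRCm38 (mm10), and a gene's windows reached 2000 bp either side of every TSS. Read pileups and density were solved from each summit's fold enrichment and p-value, which succeeded for 99.8% to 99.9% of summits. Intervals are 1-based. Sequences are RefSeq's, on GRCm38.p6, and were checked against the assembly.

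Covered bases were fitted as log2(covered bases + 100) with limma 3.58.1 (R 4.3.3) over all autosomal protein-coding genes with a promoter peak in at least 2 of 6 libraries, and rank percentiles over those with a peak in 6, with Benjamini-Hochberg adjustment and an adjusted p threshold of 0.05. Fits were tested on simulated data. No test was made over the members as a list, and 3 against 3 libraries could not give an exact permutation p below 0.1. Summaries used Python 3.11.15 and pandas 2.3.3. The replicates are separate pools of GCs. The labels give no pairing of same-numbered libraries, which did not deviate together, and they were not treated as pairs.

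The members and gene lists were chosen with earlier results of these data known. Values per library are given for up to 24 members marked in all 6 libraries with the most covered bases, members marked in only 1 group, called members, the 3 of each family with the most covered bases, and a list of 20 channel genes; other genes were named after their values were seen. Alternatives were other windows, start sites, q-values, equal peak numbers, filters, pseudocounts, quantile normalization, the replicate block and leaving out each library, and the scaled pileup and the median under quantile normalization, other pseudocounts and filters were added after seeing the data. Single values of some genes that the rule names are not reported here.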

Additional observations from a re-analysis of the deposited data

How the results depend on the processing

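Quantile normalization, which sets the libraries to 1 distribution, turned the median log2 difference of covered bases from -0.81 to 0.0558 over the channels and from -0.84 to 0.0440 over all genes. With no filter, when most genes have no covered base, it was 0 for both, and with a pseudocount of 1000 bp it was -0.28 for both. These settings were applied to the median after the data were seen. With 1 TSS per gene the order of the families turned around, with 31.3% of calcium and 33.2% of potassium channel genes marked. The sodium share, 26.2% after PBS and 23.8% after CTX, was 14.3% and 19.0% with equal peak numbers and, at the q-value limit of 0.01, 21.4% and 23.8%. The difference in channel genes with a promoter peak (-12.3, CTX minus PBS) stayed below 0 under every other window, start site, q-value, peak number and left-out library. No alternative gave a channel gene marked in every CTX and no PBS library. In the main setting this held for all protein-coding genes too, with a count of 0, and they were not counted under the alternatives. A q-value of at most 1e-05, which leaves fewer peaks by construction, lowered the excess over all genes from 30.6 to 18.5 percentage points. The shares fell to 22.8% of potassium, 11.9% of sodium and 27.3% of calcium channel genes. Genes marked in all 6 libraries fell from 30 to 7 among the channels and from 758 to 227 among all genes. The median log2 difference moved to -1.22 (all genes -1.20). Equal peak numbers lowered the sodium share over all libraries to 16.7%. Channel genes marked in every PBS and no CTX library numbered 1 with windows of 1000 or 5000 bp or the q-value limit of 1e-05, and 0 with equal peak numbers. With 1 TSS per gene they numbered 3. The share of all genes was not counted in these settings, so the counts are no result about the channels.

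The 2 calls by covered bases, beside 4.49% of all genes fitted, were the least stable values. The count was 1 with peaks within 1000 bp joined, beside 1.85% of all genes fitted, and 1 with the window of 5000 bp, beside 1.80%. It was also 1 at a q-value of at most 0.01, beside 2.68%, and at 1e-05, beside 3.50%. The share of all genes called was thus lower than in the main setting as well. It was 0 with equal peak numbers, a promoter peak required in all 6 libraries, a pseudocount of 1000 bp or quantile normalization. In each of these settings 0% of all genes fitted were called. It was also 0 with no filter, beside 0.0481% of all genes, and with the window of 1000 bp, beside 3.84%. The 1 call at 1e-05 was Kcna3. By rank the count of 0 became 1 with the scaled pileup, beside 11.9% of all genes. With the replicate number as a block the count was 0 by covered bases and 0 by rank, beside 0% of all genes by either measure. The labels do not say whether libraries of the same number were collected or prepared together. The correlations of deviations between same-numbered libraries were -0.0351, -0.0489 and -0.0379. Beyond fewer peaks or genes by construction, the cause was not tested.

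Leaving out 1 library at a time gave -16.3 to -7.5 for the difference in marked channel genes, 29.4 to 32.5 percentage points for the excess, 35.0% to 38.5% for potassium, 22.9% to 27.1% for sodium and 48.8% to 56.0% for calcium channel genes, 30 to 40 genes marked in all libraries kept, -1.02 to -0.54 for the median, 2 to 5 genes marked in PBS alone (5 without CTX 2), 0 to 3 calls by covered bases (0 without PBS 1, PBS 3, CTX 1 or CTX 3, and 3 without PBS 2) and 0 to 0 by rank. Over all protein-coding genes, 760 to 1000 were marked in all libraries kept. The 3 calls without PBS 2 stood beside 9.78% of all genes fitted, and each count of 0 by covered bases or rank beside 0%. For genes marked in PBS alone, leaving out a CTX library loosens the rule for every gene, and the share of all genes was not counted there. CTX 3, the shallowest library at 1120 reads per Mb, was also a treated one. Without CTX 3 the genes marked in all libraries kept rose from 30 to 40 among the channels and from 758 to 1000 among all genes. Kcnh3, Kcnj9 and Kcnk12, named after their values were seen, were marked in the other 5 libraries and not in CTX 3. The part of depth was not tested.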

Other observations

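Channels and partner proteins outside the 3 families were marked less often than the members. Of 56 such genes found (HCN, CNG, TRP, CLC, ryanodine and IP3 receptors, epithelial sodium channel subunits and channel partners), 11, 10 and 13 had a promoter peak in PBS 1, 2 and 3 and 9, 12 and 5 in CTX 1, 2 and 3, a mean of 17.9% against 7.45% of all protein-coding genes. The 4 marked in all 6 libraries were Ryr3, a calcium release channel, Dpp6 and Dpp10, auxiliary subunits of the Kcnd potassium channels, and Fgf14, an intracellular partner of sodium channels. Dpp6 had 1597, 1388 and 1672 bp covered after PBS and 313, 200 and 425 bp after CTX. Every PBS library was above every CTX library there, as at 32.2% of all genes with a promoter peak in all 6 libraries. Dpp10 had 1367, 998 and 1385 bp and 1086, 1362 and 420 bp, with overlap. The groups also overlapped at Ryr3, with 1331, 256 and 337 bp and 457, 682 and 244 bp. At Fgf14 they overlapped too, with 361, 365 and 249 bp and 200, 222 and 488 bp. The values of these 4 genes were added after they were seen. Of the pacemaker channels, Hcn4 was marked in 5 libraries and Hcn2 and Hcn3 in 0.

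Peaks inside channel genes but outside the promoter windows were counted in at least 1 library. They were found at 12 of the 30 genes marked in all 6 libraries, at 19 of the 37 marked in 1 to 5 and at 17 of the 64 with no promoter peak. In all 6 libraries they were found at 2, 1 and 0 genes of these sets. The sets differ in median gene length, at 64716, 59499 and 32446 bp, and all protein-coding genes were not counted this way. Cacng8, a partner of AMPA receptors with no promoter peak in any library, had 1020, 889 and 1090 bp of such peaks after PBS and 0, 934 and 200 bp after CTX. Cacng8 was chosen after its values were seen.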
